A study of Mus musculus with 6 samples.

Results

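Metallothioneins, zinc transporters and their zinc sensor form a set of 10 named genes, which were picked by symbol out of 53379 gene identifiers: Mt1, Mt2, Mtf1, Slc30a1, Slc30a5, Slc30a8, Slc39a6, Slc39a8, Slc39a10 and Slc39a14. All 10 were found in the count files. RNA-seq had been done on Min6 cells, a mouse insulinoma line widely used in place of primary beta cells. One set of cells had been infected with the lentivirus lentiCRISPR v2, which carries Cas9 and a gRNA (guide RNA), here aimed at JunD, an AP-1 transcription factor. The control set had the same vector with a gRNA to Rosa26, a locus used as a negative control. Each gRNA had 3 libraries. All 6 came from cells at passage 28, harvested on day 8 from infection. Both sets had spent 30 hours in glucolipotoxic medium, a stress of high glucose and fatty acid, so the controls were stressed too. The labels do not say whether replicates were infected separately or whether cells were cloned. The p-values thus describe the spread of these libraries, which may be technical.

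Zinc is unusually abundant in beta cells, because it is stored with insulin in the secretory granule. ZnT proteins (Slc30a genes) move zinc out of the cytosol, across the plasma membrane or into organelles, and ZIP proteins (Slc39a genes) move it into the cytosol. Metallothioneins are small cysteine-rich proteins that bind zinc and copper, and the zinc-sensing factor MTF-1, the product of Mtf1, switches on Mt1, Mt2 and Slc30a1 through metal response elements in their promoters.

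The promoter sequences of Mt1, Mt2 and Slc39a8 are shown because Mt1 and Slc39a8 are the members called between the gRNAs once Rosa26 gRNA replicate 1 was left out (0 were called with all 6 libraries), and Mt2 is the neighbour of Mt1 with almost no counts. They are the 250 bases before a RefSeq transcript start (GRCm38.p6), all on the plus strand: chr8:94178839-94179088 for Mt1, chr8:94172368-94172617 for Mt2 and chr3:135825029-135825278 for Slc39a8. Capitals mark matches, on either strand, to the core of the metal response element (TGCACNC or TGCGCNC) and to the AP-1 site (TGACTCA or TGAGTCA).
Mt1: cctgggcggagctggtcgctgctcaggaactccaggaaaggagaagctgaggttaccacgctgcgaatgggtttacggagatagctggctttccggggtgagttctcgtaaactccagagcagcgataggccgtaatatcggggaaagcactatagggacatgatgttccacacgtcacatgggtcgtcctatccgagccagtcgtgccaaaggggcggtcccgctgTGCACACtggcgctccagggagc
Mt2: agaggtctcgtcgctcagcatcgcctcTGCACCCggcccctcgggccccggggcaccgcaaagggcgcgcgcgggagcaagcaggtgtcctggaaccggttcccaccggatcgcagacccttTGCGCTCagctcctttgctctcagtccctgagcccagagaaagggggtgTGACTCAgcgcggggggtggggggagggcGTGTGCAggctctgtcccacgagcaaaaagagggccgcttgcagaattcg
Slc39a8: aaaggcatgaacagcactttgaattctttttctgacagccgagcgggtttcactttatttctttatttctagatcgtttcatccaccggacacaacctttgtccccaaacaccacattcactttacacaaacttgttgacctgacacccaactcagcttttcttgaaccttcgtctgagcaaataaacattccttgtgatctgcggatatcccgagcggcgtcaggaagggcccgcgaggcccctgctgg
Over windows that run 50 bases past the start, 300 bases in all, Mt1 had 3 metal response cores and 0 AP-1 sites, and Mt2 had 4 cores and 1 AP-1 site. At least 1 core was found in 25.7% of 32851 such windows, at least 3 in 1.97% and at least 4 in 0.517%, and an AP-1 site in 5.2%. The Mt2 cores began at positions -223, -128, -50 and 5 from the start, and its AP-1 site lay from -79 to -73. The Mt1 cores began at -23, 3 and 21. GENCODE places 2 further Mt1 transcript starts 122 and 152 bases downstream, so the window covers only part of the sequence before those. It places Mt2 transcript starts 46 and 242 bases downstream, and the Mt2 window covers little of the sequence before the latter. The Slc39a8 window held neither motif, and the window of its second RefSeq start held 1 core. Slc30a1 had 2 cores, Slc30a5 had 1, and Mtf1 and both starts of Slc39a10 had 0. None of these other members had an AP-1 match. Sequence was matched for 7 of the 10 members, and Slc30a8, Slc39a6 and Slc39a14 had no entry. A match is a string of letters and does not show binding.

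Totals ran from 41071566 to 49628813 counts in the JunD gRNA libraries and from 43408459 to 50024931 in the Rosa26 gRNA libraries. Jund itself had 944, 1029 and 1333 counts in the JunD gRNA libraries, against 1706, 1727 and 1454 in the Rosa26 gRNA libraries, and 877 of its 1668 exon bases lie under an opposite-strand exon. Rosa26 gRNA replicate 1 stood apart: on a first principal component with 45.8% of the variance it lay at 62.1, and the other 5 lay between -22.5 and -6.1. Its log2 deviations correlated with transcript GC content at a Spearman rho of -0.506 across genes, and genes are not independent. Fold changes are therefore given with all 6 libraries and without it. Among the remaining 5, rho was 0.057, 0.026 and 0.289 for the JunD gRNA, against -0.179 and -0.235 for the Rosa26 gRNA, so a GC trend ran with the gRNA. Beta-cell markers fitted the label, with a summed level of 90000 to 96500 CPM (counts scaled to a common library total) with the JunD gRNA and 51900 to 91000 CPM with the Rosa26 gRNA, the lowest being replicate 1. The 10 stromal, endothelial and immune markers summed to 4.29 to 6.15 CPM with the JunD gRNA and 5.87 to 7.74 CPM with the Rosa26 gRNA, and the acinar genes Ptf1a and Prss1 were at 0 throughout. In bulk RNA, fewer cells expressing a gene and less RNA per cell cannot be told apart.

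Mt1 (chr8:94179082-94180327, plus strand, GRCm38) had far more counts than the other metallothioneins, and it was higher in every JunD gRNA library than in any Rosa26 gRNA library. It stood at 301, 318 and 271 CPM with the JunD gRNA, against 101, 255 and 256 CPM with the Rosa26 gRNA. The Rosa26 gRNA libraries did not agree among themselves, because replicate 1 lay far below the other 2, with a log2 difference of -1.34 from their mean. With all 6 libraries the log2 fold change (JunD gRNA over Rosa26 gRNA) was 0.55 ± 0.29 (SE, n = 3 each) and did not pass the test of edgeR (Benjamini-Hochberg adjusted p = 0.434). Without replicate 1 it was 0.22 ± 0.05, a 1.16-fold rise, and passed at an adjusted p under the 0.05 threshold (adjusted p = 0.0130). So the low library made the difference larger and its error larger still. Without JunD gRNA replicate 2 as well, the value was 0.18 and did not pass (adjusted p = 0.0595). With only 1 Rosa26 gRNA library left, assumed to vary like the JunD gRNA libraries, it was 0.22 without replicate 2 and 0.23 without replicate 3, and the call was lost (adjusted p = 0.189 and 0.319).

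Mt3, the metallothionein known mainly from brain, lies 26475 bases from Mt1 in the same cluster on chromosome 8 and is not one of the 10 members. It showed the same order of groups, with 52.7, 56.5 and 68.3 CPM with the JunD gRNA, against 29.1, 47.1 and 46.5 CPM with the Rosa26 gRNA. The groups did not overlap. Its log2 fold change was 0.55 ± 0.18 with 6 libraries (adjusted p = 0.417), and it rose by 0.35 ± 0.08 without Rosa26 gRNA replicate 1 (adjusted p = 0.0140). Corrected in edgeR for the GC content and length of transcripts, these values were smaller. They were 0.36 ± 0.10 with 6 libraries (adjusted p = 0.269) and 0.25 ± 0.06 with 5 (adjusted p = 0.0161). DESeq2 on the same 5 libraries gave 0.35 ± 0.15 and did not call it (adjusted p = 0.155). The edgeR call was also lost without Rosa26 gRNA replicate 2 or 3, at 0.36 and 0.34 (adjusted p = 0.170 and 0.348). The protein-coding genes on either side of the cluster gave no call: the log2 fold changes without replicate 1 were -0.05 for Ogfod1, -0.11 for Bbs2 and 0.01 for Nup93. Mt4, an epithelial metallothionein, had 0 counts in every library.

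Mt2 (chr8:94172664-94173568, plus strand) had 2, 4 and 8 counts in the JunD gRNA libraries, against 9, 7 and 7 in the Rosa26 gRNA libraries, and did not enter the test. The groups overlapped. Its share of the Mt1 and Mt2 counts together was 0.0159% to 0.0595% with the JunD gRNA and 0.0549% to 0.206% with the Rosa26 gRNA. For the lowest of these, in JunD gRNA replicate 1, the exact 95% binomial interval was 0.00193% to 0.0575%, which covers counting error only. Whether the low count reflects a low level of Mt2 RNA was not tested. Of its 588 annotated exon bases, 432 are also exon bases of Gm45774, an antisense gene, and 156 at the 3′ end are free. No source used here gives the strand setting of the counting. By default featureCounts gives a read that overlaps 2 genes to neither, and without strand this would hold for antisense pairs. In these files 86.1% of 447 genes whose exon bases all lie under opposite-strand exons had 0 counts in all 6 libraries. The share was 74.5% of 656 genes wholly under same-strand exons and 50.1% of 41943 genes that share no exon base. Over the 6 libraries, 34, 63 and 10713 genes of these sets had 100 or more counts, with maxima of 127258, 4991 and 12397256. Mt2, with 156 free bases, is in none of these sets, and what they mean for its count was not tested. Slc39a7, with 19.3% of its exon bases free, had 5342 counts over the 6 libraries, and Mt2, with 26.5% free, had 37. These genes are not alike, because the shared bases of Slc39a7 lie under same-strand exons and those of Mt2 under opposite-strand exons. Gm45774 itself averaged 1.19 CPM with the JunD gRNA and 1.14 CPM with the Rosa26 gRNA. Of the 554 Mt2 stretches of 50 bases, 0 occurred in the annotated transcripts of another gene. Mt1 and Mt3 share no exon base with another gene.

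**Figure D1:**
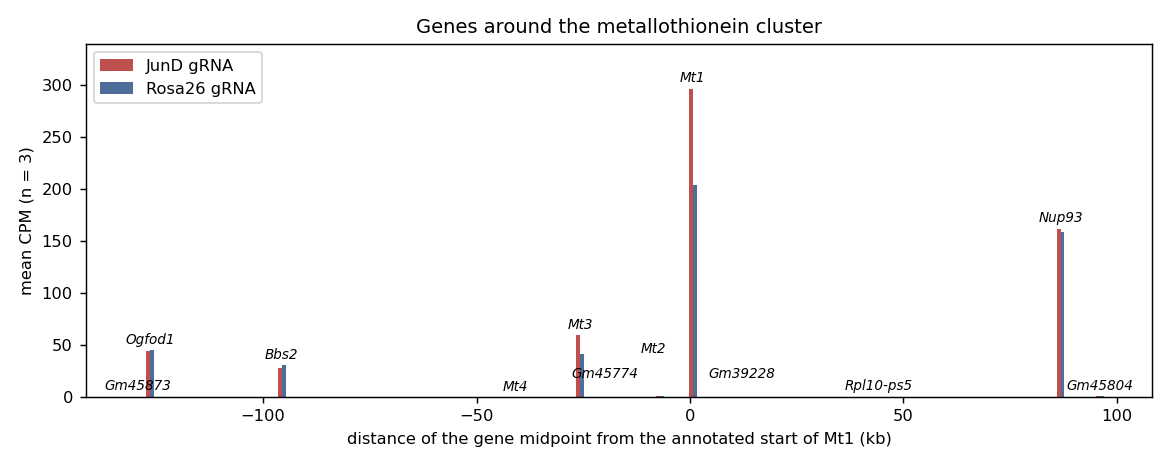
Mean level in CPM (3 libraries per gRNA) of the annotated genes within 100000 bases of the metallothionein cluster, placed by the distance of their midpoint from the annotated start of Mt1 in kilobases. Mt1 stands at 297 CPM with the JunD gRNA and 204 CPM with the Rosa26 gRNA, Mt3 at 59.2 CPM with the JunD gRNA and 40.9 CPM with the Rosa26 gRNA, and Mt2 and Mt4 are too low to show a bar.

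The zinc sensor and the zinc-induced exporter gave no call. Mtf1 (chr4:124802104-124849800, plus strand) stood at 37.3, 42.9 and 40.1 CPM with the JunD gRNA, against 48.0, 40.5 and 39.8 CPM with the Rosa26 gRNA. Its log2 fold change was -0.08 ± 0.09 with 6 libraries and 0.00 ± 0.06 without Rosa26 gRNA replicate 1 (adjusted p = 0.702 and 0.992). Slc30a1 (chr1:191906767-191913247, plus strand) encodes ZnT1, the plasma membrane exporter that MTF-1 induces. It had 21.3, 20.6 and 19.9 CPM with the JunD gRNA, against 26.4, 19.5 and 20.1 CPM with the Rosa26 gRNA. The values were -0.08 ± 0.12 and 0.06 ± 0.08 (adjusted p = 0.759 and 0.775), and the groups of both genes overlapped. In both, Rosa26 gRNA replicate 1 was the highest library, opposite to its place in Mt1. Parts of both genes, 721 bases of Mtf1 and 468 of Slc30a1, lie under antisense exons.

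Slc30a8 (chr15:52295553-52335798, plus strand) encodes ZnT8, the transporter that loads zinc into insulin granules, and had the highest CPM of the transporters. It had 427, 424 and 401 CPM with the JunD gRNA, against 432, 404 and 402 CPM with the Rosa26 gRNA. The groups overlapped, and the log2 fold change was 0.03 ± 0.06 with 6 libraries and 0.06 ± 0.04 without Rosa26 gRNA replicate 1 (adjusted p = 0.816 and 0.513). Per 1000 counts of the insulin gene Ins2 there were 8.56, 8.50 and 7.48 counts of Slc30a8 with the JunD gRNA, against 19.7, 8.79 and 8.18 with the Rosa26 gRNA. Slc30a8 thus did not follow Ins2 in replicate 1, where Ins2 was low.

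Slc30a5 (chr13:100802648-100833427, minus strand) encodes ZnT5, which carries zinc into the early secretory pathway. It stood at 163, 161 and 152 CPM with the JunD gRNA, against 194, 168 and 181 CPM with the Rosa26 gRNA. The groups did not overlap, yet the difference did not pass, with a log2 fold change of -0.17 ± 0.07 (adjusted p = 0.417) and of -0.13 ± 0.05 without Rosa26 gRNA replicate 1 (adjusted p = 0.126). Corrected for the GC content and length of transcripts, these values were -0.02 and -0.05. Outside the 10 members, Slc30a4, the gene of the vesicular transporter ZnT4, was the one ZnT gene called. It had 138, 139 and 137 CPM with the JunD gRNA, against 226, 160 and 158 CPM with the Rosa26 gRNA. It fell by 0.20 ± 0.04 without Rosa26 gRNA replicate 1 (adjusted p = 0.00928), and its value with 6 libraries was -0.38 ± 0.12 (adjusted p = 0.417). Corrected for GC content and length, the value from 5 libraries was -0.10 and did not pass (adjusted p = 0.181). The call was also lost without Rosa26 gRNA replicate 2 or 3, at -0.19 and -0.20 (adjusted p = 0.195 and 0.314).

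Slc39a8 was the zinc importer that differed. The gene (chr3:135825279-135888572, plus strand) encodes ZIP8, which takes up zinc, manganese and iron. Its level was 78.7, 73.0 and 73.9 CPM with the JunD gRNA, against 69.5, 60.8 and 63.3 CPM with the Rosa26 gRNA. Every JunD gRNA library lay above every Rosa26 gRNA library, and here replicate 1 lay nearer to the JunD gRNA libraries than the other 2 controls. The log2 fold change was 0.24 ± 0.08 with 6 libraries (adjusted p = 0.417), and it rose by 0.28 ± 0.05 without replicate 1 (adjusted p = 0.00428), or 1.22-fold. It was also called after the GC and length correction, at 0.45 ± 0.07 with 6 libraries (adjusted p = 0.0405) and 0.38 ± 0.05 with 5 (adjusted p = 8.99e-06). Without Rosa26 gRNA replicate 2 or 3 as well, it was 0.25 and 0.32 and did not pass (adjusted p = 0.161 and 0.0992). All of its 7664 annotated exon bases are free of other genes.

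The other 3 importers gave no call. Slc39a14 (chr14:70303469-70351425, minus strand) encodes ZIP14, which takes up zinc, iron and manganese and is induced by interleukin 6 in liver. It stood at 70.2, 65.0 and 62.5 CPM with the JunD gRNA, against 68.5, 68.6 and 67.4 CPM with the Rosa26 gRNA, and the groups overlapped. Its log2 fold change was -0.03 ± 0.07 with 6 libraries and -0.04 ± 0.05 with 5 (adjusted p = 0.837 and 0.783). Counts of Slc39a8 per count of Slc39a14 were 1.12, 1.12 and 1.18 with the JunD gRNA, against 1.02, 0.886 and 0.939 with the Rosa26 gRNA. This ratio within a library does not depend on its depth, and the groups did not overlap in it. It reuses the CPM values of both genes and is not separate support for the Slc39a8 difference. The longest transcripts differ in GC content, with 39.5% for Slc39a8 and 51.7% for Slc39a14.

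Slc39a6 and Slc39a10 encode ZIP6 and ZIP10, related plasma membrane importers that can pair with each other. Slc39a6 (chr18:24579881-24603817, minus strand) had 181, 178 and 177 CPM with the JunD gRNA, against 239, 189 and 200 CPM with the Rosa26 gRNA. These groups did not overlap, but the log2 fold change of -0.21 ± 0.08 with 6 libraries and -0.12 ± 0.04 with 5 did not pass (adjusted p = 0.417 and 0.130). Slc39a10 (chr1:46807544-46892852, minus strand) had 30.9, 32.8 and 28.2 CPM with the JunD gRNA, against 46.6, 32.7 and 33.5 CPM with the Rosa26 gRNA. Its groups overlapped, with -0.28 ± 0.13 and -0.11 ± 0.07 (adjusted p = 0.424 and 0.487). For both genes replicate 1 was the highest of the 6 libraries, and the value without it was nearer to 0.

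**Figure D2:**
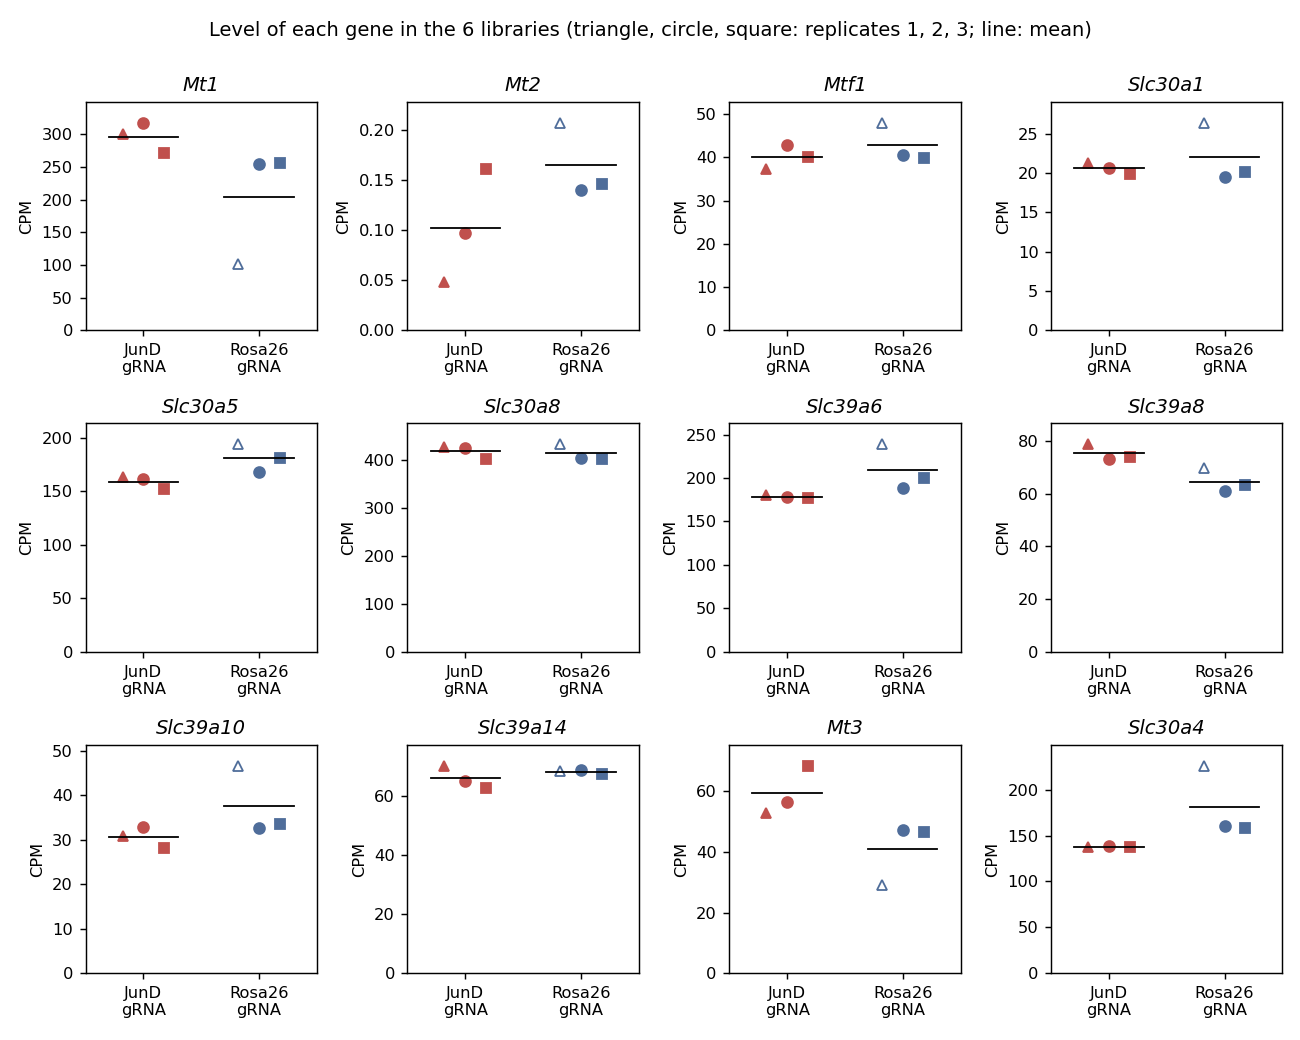
Level in CPM (y axis from 0) of the 10 members and of Mt3 and Slc30a4 in each library, JunD gRNA on the left and Rosa26 gRNA on the right; the line is the mean of 3 and the open triangle is Rosa26 gRNA replicate 1. That library is lowest in Mt1 and Mt3, between the others in Slc39a8 and Slc39a14, and highest in the other 8 genes.

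Of the 10 members, 9 passed the filter on low counts and were tested. With all 6 libraries 0 were called in either direction by edgeR, where 0.0% of 17767 genes were, while 3 had an unadjusted p under 0.05, and DESeq2 and limma-voom also called 0 members. Among all genes 2119 had an unadjusted p under 0.05, and DESeq2 called 67. Without Rosa26 gRNA replicate 1, Mt1 and Slc39a8 rose, none fell and 7 did not pass, beside 1.45% of 18296 genes called higher, 1.4% called lower and 2.86% called in all. The median log2 fold change of the 9 was -0.08 with 6 libraries and 0.00 with 5, and that of all tested genes was -0.01 and 0.00. With 6 libraries the groups did not overlap for Mt1 and Slc39a8 (JunD gRNA higher) and for Slc30a5 and Slc39a6 (lower), beside 11.6% of all tested genes for higher and 12.8% for lower. Without replicate 1 the same 4 genes did not overlap, beside 15.7% for higher and 17.3% for lower. The members had been chosen with such results known, so these counts describe them only.

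The wider families were read from lists of all their genes. Without Rosa26 gRNA replicate 1, 1.45% of all 18296 tested genes were called higher and 1.4% lower, and their median log2 fold change was -0.003. Of 4 metallothioneins 2 were tested, and both, Mt1 and Mt3, rose without that library. Of 11 zinc exporters, which include the vesicular transporter Tmem163, 9 were tested, 1 fell (Slc30a4), 0 rose and 8 did not pass, with a median of -0.10. Of 14 importers 13 were tested, 1 rose (Slc39a8), 0 fell and 12 did not pass, with a median of -0.08. With 6 libraries 0 of these 24 tested genes passed, and 5 had an unadjusted p under 0.05, beside 2119 of all 17767 tested genes. Summed over the lists, exporters came to 1010 to 1050 CPM with the JunD gRNA and to 1060 to 1200 CPM with the Rosa26 gRNA, and importers to 696 to 723 CPM with the JunD gRNA and 717 to 788 CPM with the Rosa26 gRNA. The upper ends of the Rosa26 gRNA ranges belong to replicate 1. Importer CPM per exporter CPM was 0.669 to 0.703 with the JunD gRNA and 0.657 to 0.692 with the Rosa26 gRNA, ranges that overlap.

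**Figure D3:**
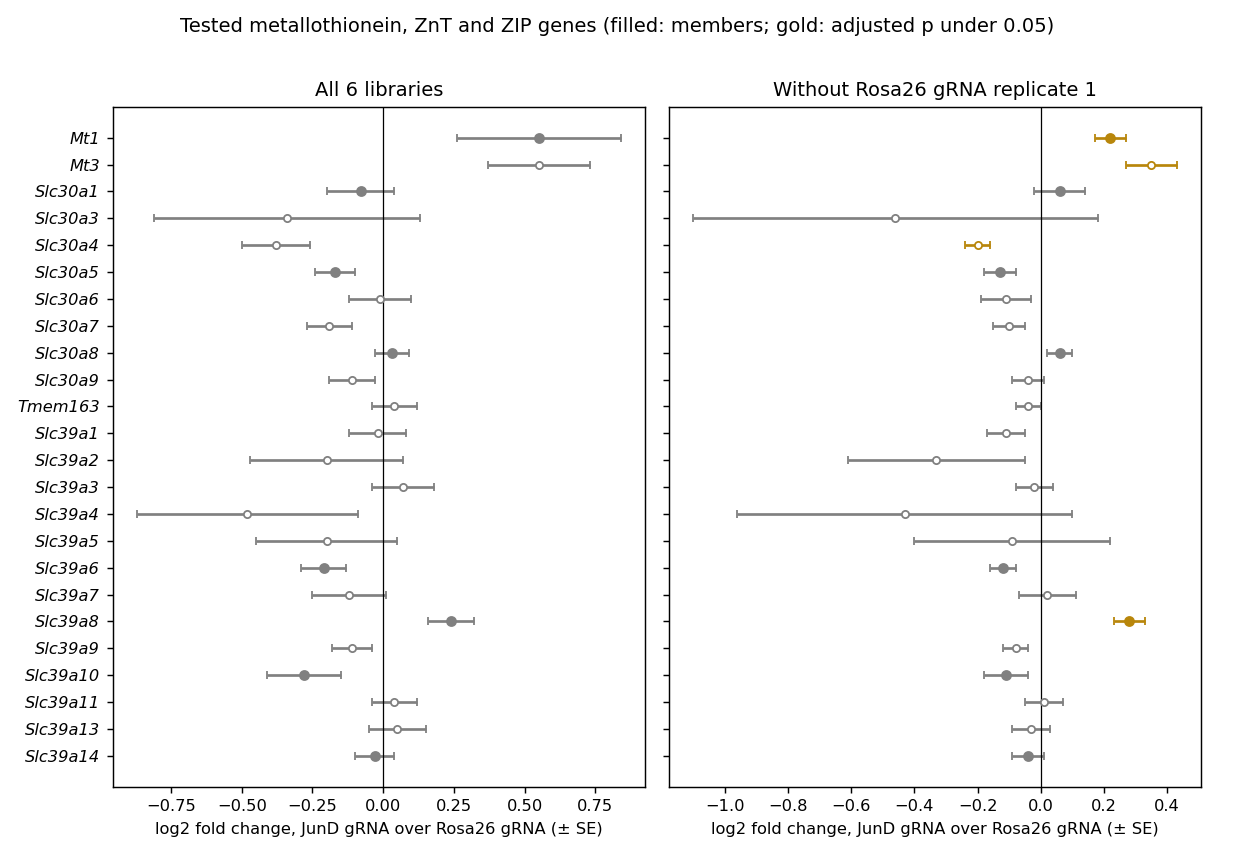
Log2 fold change, JunD gRNA over Rosa26 gRNA, with its SE for the 24 tested metallothionein, exporter and importer genes, with all 6 libraries (left) and without Rosa26 gRNA replicate 1 (right). No gene passed on the left; Mt1, Mt3 and Slc39a8 passed as higher and Slc30a4 as lower on the right.

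A list of 11 genes linked to MTF-1 held 9 tested genes. Without Rosa26 gRNA replicate 1, Mt1 and Csrp1 rose, 0 fell and 7 did not pass, beside 1.45% of all tested genes called higher and 1.4% lower. With 6 libraries 0 passed. Csrp1, which encodes a LIM-domain protein, had 76.4, 78.9 and 83.3 CPM with the JunD gRNA, against 62.2, 69.6 and 66.8 CPM with the Rosa26 gRNA, and the groups did not overlap. It rose by 0.23 ± 0.05 (adjusted p = 0.0198), and its value with 6 libraries was 0.28 ± 0.08 (adjusted p = 0.417). Selenow, a selenoprotein gene named after its value was seen, had 0.18 ± 0.06 with 5 libraries and 0.35 ± 0.15 with 6 and did not pass (adjusted p = 0.116 and 0.417). Slc40a1, also named after its value was seen, went the other way, and its groups did not overlap. It had -0.16 ± 0.06 with 5 libraries and -0.18 ± 0.07 with 6 and did not pass (adjusted p = 0.199 and 0.417). The median of the list was 0.05 without replicate 1 and -0.03 with it.

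The place of Rosa26 gRNA replicate 1 varied between zinc genes. Against the mean of Rosa26 gRNA replicates 2 and 3, its log2 difference was -1.34 in Mt1 and -0.69 in Mt3, against 0.51 in Slc30a4, 0.49 in Slc39a10 and 0.41 in Slc30a1. The GC content of the longest annotated transcript was 52.9% for Mt1 and 62.3% for Mt3, and 41.2%, 44.5% and 46.2% for the other 3. These transcripts had 1085 bases for Mt1 and 536 for Mt3, and 5458, 5498 and 5244 for the other 3. Other genes of high GC content went both ways, though each one given here as higher had few counts or shared most of its exon bases. Slc30a3, Slc39a4 and Slc39a5 had few counts (10, 22 and 64 in Rosa26 gRNA replicate 1). Slc39a7 shares 2084 of its 2584 exon bases with another gene. The difference was 0.41 in Slc39a7 (57.5% GC), 0.35 in Slc39a5 (60.0%) and 0.17 in Slc39a4 (56.9%). It was -0.27 in Slc39a3 (59.4%), -0.24 in Slc39a13 (59.7%) and -0.36 in Slc30a3 (60.3%). Over the 24 tested zinc genes, all measured in the same libraries, the Spearman rho of this difference was -0.45 with GC content and 0.61 with transcript length. Over 17743 tested genes the values were -0.47 and 0.28. The part of GC content and length in the difference of any one gene was not tested beyond the correction. After the correction Mt1 had 0.50 ± 0.22 with 6 libraries (adjusted p = 0.446) and 0.21 ± 0.05 with 5 (adjusted p = 0.00695).

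Levels of different genes were compared per kilobase of merged annotated exon, as RPKM. Mt1 and Slc30a8 were at the top, with 238 ± 19.2 and 212 ± 7.22 RPKM with the JunD gRNA (SD, n = 3), and 164 ± 71.7 and 209 ± 8.71 RPKM with the Rosa26 gRNA. Mt1 ranged from 217 to 255 RPKM in the JunD gRNA libraries, and Slc30a8 from 204 to 217 RPKM, so the order of these neighbours rests on differences near their spread. With the Rosa26 gRNA the order of the means was the other way round. Slc39a6 followed with 43.8 ± 0.507 RPKM with the JunD gRNA and 51.4 ± 6.41 RPKM with the Rosa26 gRNA. Slc30a5 had 21.8 ± 0.845 RPKM with the JunD gRNA and 24.8 ± 1.76 RPKM with the Rosa26 gRNA, and Slc39a8 had 9.81 ± 0.402 RPKM with the JunD gRNA and 8.42 ± 0.587 RPKM with the Rosa26 gRNA. None of these 3 overlapped another of the 10 members over the 6 libraries at this length. The next 4, Slc39a14, Slc39a10, Mtf1 and Slc30a1, lay between 3.72 and 7.64 RPKM, and neighbours among them overlapped over the 6 libraries. Within the JunD gRNA libraries Slc39a14, at 5.92 RPKM or more, did not overlap Slc39a10, at 5.39 RPKM or less. Mt3, with 55.5 ± 7.62 RPKM with the JunD gRNA and 38.4 ± 9.60 RPKM with the Rosa26 gRNA, overlapped Slc39a6. The levels depend on the length used. With the longest annotated transcript in place of merged exons, the JunD gRNA means were 39.7 RPKM for Slc30a5, 17.9 for Slc39a8, 12.9 for Slc39a14, 273 for Mt1 and 110 for Mt3, which then lay above Slc39a6 at 45.9 RPKM. The order of the 10 members by these means was the same with either length.

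**Figure D4:**
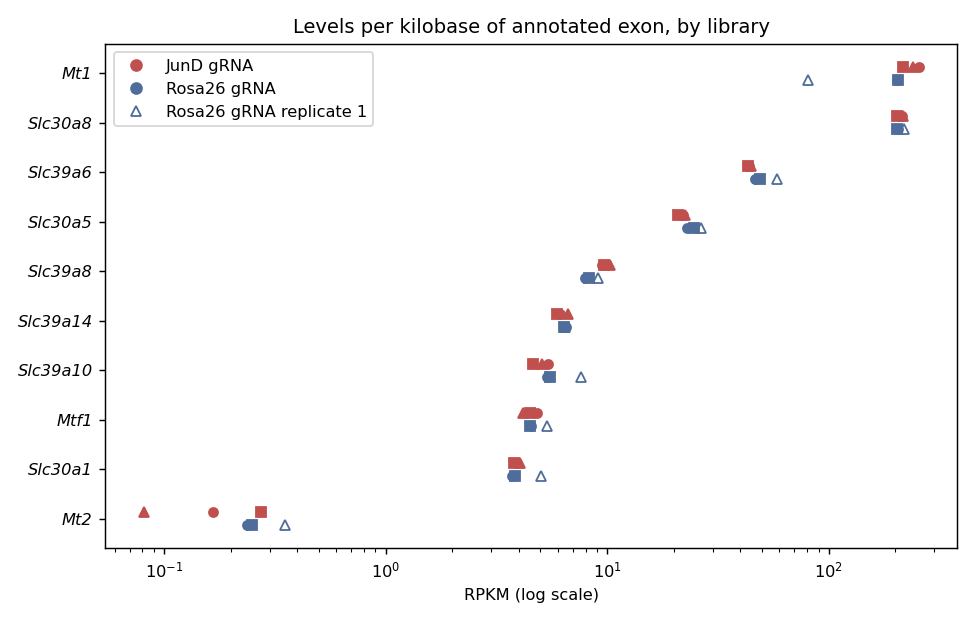
RPKM (log axis) of the 10 members in each library, JunD gRNA above Rosa26 gRNA for each gene, ordered by the JunD gRNA mean. Mt1 and Slc30a8 lie above 200 RPKM except for Mt1 in Rosa26 gRNA replicate 1 (80.8 RPKM), and Mt2, whose exons lie partly under those of an antisense gene, lies below 0.4 RPKM.

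The genes whose log2 CPM followed Mt1 most closely over the 6 libraries, among 11465 with a mean of at least 2 CPM, were Mirg, Tmem205, Cptp, Tnk1 and Tcta, with Pearson correlations from 0.9978 to 0.9986. All 5 had their lowest level in Rosa26 gRNA replicate 1, for example Mirg with 25.2 CPM there and 37.2 to 41.3 CPM elsewhere. Over the 5 libraries without it the closest were Srbd1, Nup50, Sesn3, Tmem212 and Setd5 (0.9949 to 0.9988). No gene was on both lists, and 4 of these last 5 were highest in the left-out library while Mt1 was lowest there. For Mt2, with 2 to 9 counts a library, Osgepl1, Stxbp3, Arf2, Ccdc91 and Wnt9a came closest over 6 libraries (0.9737 to 0.9910) and Eef1akmt1, Smim11, Maff, Mapkapk3 and Arf2 over 5 (0.9925 to 0.9988). With so few libraries and so many genes, high correlations can arise without any link, and these are descriptions.

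**Figure D5:**
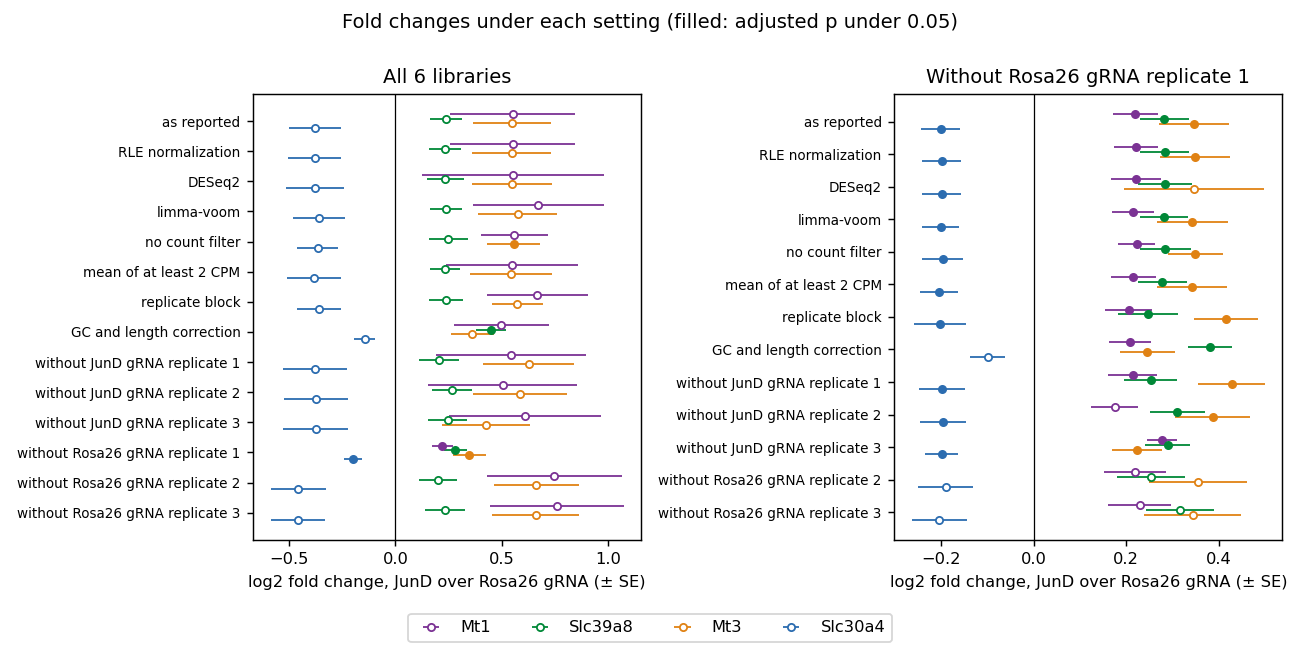
Log2 fold change, JunD gRNA over Rosa26 gRNA, with its SE for Mt1, Slc39a8, Mt3 and Slc30a4 under each processing setting, with all 6 libraries (left) and without Rosa26 gRNA replicate 1 (right); filled points have an adjusted p under 0.05. Each gene keeps its sign in every setting shown, while filled points on the left are few: 1 each for Mt1 and Slc30a4, and 2 each for Slc39a8 and Mt3.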

How the data were processed

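RNA-seq of Min6 cells was deposited by the authors as raw counts per gene, 1 table per library. TopHat2, featureCounts and mm10 are named in the submitters' processing notes. No source used here gives versions, annotation release, strand setting or the treatment of reads with several matches. Symbols were matched without the version number for 53274 of 53379 identifiers. Coordinates, lengths and GC content came from GENCODE M21 (GRCm38, also called mm10) and promoters from RefSeq (GRCm38.p6). CPM are counts over the library total.

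JunD gRNA was compared with Rosa26 gRNA in edgeR 4.0.16 (R 4.3.3) by its quasi-likelihood test, with the group as sole term, filterByExpr, TMM scaling and Benjamini-Hochberg adjustment over all tested genes at 0.05. The SE is the absolute log2 fold change over the square root of F. Alternatives were RLE factors, DESeq2 1.42.0, limma-voom (limma 3.58.1), no filter, a mean of at least 2 CPM, a replicate block, splines of 5 degrees of freedom for GC content and length, and each library left out. The length behind RPKM was varied after seeing the data. The fit was run on counts simulated with 200 changed genes and a dispersion of 0.01. These held no outlying library and no GC trend, so that run does not cover such features of the data. No pair of replicates agreed within sampling noise (smallest ratio of chi-square to degrees of freedom 3.22).

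The members, the gene lists and the use of the 5 libraries were chosen with earlier results of these data known. Named genes were Jund, the members, the called genes of the metallothionein, transporter and MTF-1 lists, up to 3 called genes of each other list with the smallest p, and the 5 closest in pattern to Mt1 and to Mt2. Genes named outside this rule, among them Selenow, Slc40a1, Sod1, Errfi1 and Iapp, were chosen after their values were seen. Low counts limit the precision of Mt2 and of transporters near 1 CPM. Intervals cover counting error only.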

Additional observations from a re-analysis of the deposited data

How the results depend on the processing

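With all 6 libraries 0 members and 0 genes were called. The GC and length correction called 1 member (Slc39a8) and 25 genes, DESeq2 67 genes and the fit with no count filter 86 genes. Leaving out 1 library gave 0 to 2 members and 0 to 523 genes, the upper ends without Rosa26 gRNA replicate 1. Without that library 2 members and 523 genes were called. No count filter gave 870 genes and the replicate block 832. Leaving out a further library gave 0 to 2 members and 46 to 672 genes, with 0 members where 1 Rosa26 gRNA library was left. The cause of these shifts was not tested, beyond fewer libraries in those left out.

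Log2 fold changes near 0 changed sign. With 6 libraries the GC and length correction gave 0.017 for Mtf1 and 0.030 for Slc30a1, and leaving out 1 library gave -0.119 to 0.002 for Mtf1, -0.153 to 0.060 for Slc30a1 and -0.078 to 0.000 for Slc39a14. With 5 libraries Mtf1 was -0.001 at a mean of at least 2 CPM and -0.039 to 0.056 with a further library left out. No alternative reversed Mt1, Mt3, Slc30a4 or Slc39a8. The median over all genes moved to at most 0.019, under the GC and length correction.

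Same-numbered libraries deviated together with correlations of 0.055, -0.039 and 0.074, and not every library correlated best with its own number, so the numbers were not taken as pairs. The replicate block called 0 members and 0 genes with 6 libraries, and 2 members and 832 genes with 5.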

Other observations

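Of 10 tested copper-handling genes 0 passed with 6 or 5 libraries, and 1 and 2 of them had an unadjusted p under 0.05. Among all tested genes, 2119 of 17767 had such a p with 6 libraries and 2908 of 18296 with 5. The smallest p of the copper-handling genes was that of Sod1, the copper-zinc superoxide dismutase, chosen after its value was seen. It stood at 147, 151 and 153 CPM with the JunD gRNA, against 102, 139 and 134 CPM with the Rosa26 gRNA, and its log2 fold change without Rosa26 gRNA replicate 1 was 0.14 (edgeR adjusted p = 0.0753), and with all 6 libraries 0.28 (adjusted p = 0.417). Of 9 tested glucocorticoid response genes, a pathway known to induce metallothioneins, 0 passed in either fit. With 6 and 5 libraries 2 and 3 of them had an unadjusted p under 0.05, beside 2119 of 17767 and 2908 of 18296 of all tested genes. Errfi1, also named for its smallest p, had -0.18 without replicate 1 (adjusted p = 0.133) and -0.20 with it (adjusted p = 0.417).

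Of 11 acute-phase and STAT3 response genes tested without Rosa26 gRNA replicate 1, Steap4 and Lcn2 fell, 0 rose and 9 did not pass, beside 1.45% of all tested genes called higher and 1.4% lower. With 6 libraries 0 genes of this or the following lists passed. Steap4, a metalloreductase gene, had 1.53, 1.68 and 1.31 CPM with the JunD gRNA, against 4.15, 4.08 and 3.68 CPM with the Rosa26 gRNA, and the log2 fold change was -1.36 ± 0.20 (adjusted p = 0.000257), and -1.38 ± 0.17 with 6 libraries (adjusted p = 0.115). Lcn2, which encodes a lipocalin that binds iron carriers of bacteria, was at -0.92 with 5 libraries and -0.65 with 6. Of 10 beta-cell markers, 5 rose, 1 fell and 4 did not pass without replicate 1. Pdx1 (0.37), Mafa (0.47) and Nkx6-1 (0.21) were among those that rose, against 0.34, 0.58 and 0.18 with 6 libraries. The marker that fell was Iapp, at -0.11, against -0.01 with 6 libraries. The islet hormone gene Ppy fell by 0.70 without replicate 1, and its value with 6 libraries was -0.35 (adjusted p = 0.602). The mitochondrial rRNA genes mt-Rnr1 and mt-Rnr2 fell by 0.20 and 0.19 without replicate 1, and their values with it were -1.14 and -1.01 (adjusted p = 0.417 each). The structural RNA list summed to 1020 to 1150 CPM with the JunD gRNA, and with the Rosa26 gRNA to 1180 to 1300 CPM in replicates 2 and 3 but 4460 CPM in the first.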
